A study of Homo sapiens with 8 samples.

Results

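The 10 genes described here are the classical MHC class II genes HLA-DRA, HLA-DRB1, HLA-DQA1, HLA-DQB1, HLA-DPA1 and HLA-DPB1, the peptide-loading genes HLA-DMA, HLA-DMB and HLA-DOA, and CD74. They were chosen by name from 19970 protein-coding genes. Every peak in a gene body or within 10 kb of it was taken from the lists of open chromatin of 8 libraries, and 39 of 195897 peaks fell in these windows. Peaks that overlapped between libraries were joined, which gave 11 sites out of 52105 regions.

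Chromatin of U2OS cells, a human osteosarcoma line, was fixed with formaldehyde, sheared and extracted with phenol (FAIRE-seq) by the study to ask whether the zinc finger protein ZBTB48 sets the chromatin state at a promoter of CIITA, the gene of the class II transactivator. DNA that carries no nucleosome stays in the water phase and is sequenced, and a peak marks such DNA. The 4 groups of 2 libraries were untreated wild type (WT_untreated), untreated ZBTB48 knockout (KO_untreated), wild type with interferon gamma (WT_IFNγ) and knockout with interferon gamma (KO_IFNγ). Clones WT_4 and KO_C5 gave the libraries numbered 1, WT_5 and KO_D2 those numbered 2, and each clone gave 1 library without and 1 with 250 U/ml IFNγ. The labels give 24 h of IFNγ, but another time stands in the text of the study, and the duration is therefore uncertain. Each genotype rests on 2 clones of 1 line, all grown in the same medium, and the knockout itself cannot be checked from peak lists.

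MHC class II molecules present peptides from ingested proteins to CD4+ T cells. They are made of an alpha and a beta chain, and CD74, the invariant chain, holds the groove until HLA-DM exchanges its last fragment for a peptide, a step that HLA-DO restrains. Outside antigen-presenting cells the genes are mostly silent until IFNγ induces CIITA, which binds no DNA itself but docks onto RFX, CREB and NF-Y proteins at the X and Y boxes upstream of class II genes and CD74.

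From 16730 to 37533 peaks were listed on the autosomes and X, the shortest list being that of KO_untreated replicate 2 and the longest that of WT_IFNγ replicate 2. The median peak had a summit pileup of 22 to 39 fragments in the 8 lists, and the lowest pileup that was called was 5 or 6 fragments. Among osteoblast markers, COL1A1 and RUNX2 had a peak within 1 kb of an annotated start in all 8 lists, SPARC in 5 and ALPL in 4, and COL1A2 had none. At the Ensembl canonical start alone, RUNX2 and ALPL had no peak in any list, while COL1A1 and SPARC kept theirs. Among markers of blood cells, PTPRC, MS4A1, CD79A and CD14 had none and ITGAX had a peak in 3 lists. No peak lay on an alternate haplotype of the MHC.

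Sequences just upstream of 4 members are shown because the peaks described below lie on 3 of them and because they differ in the motif letters marked here. They are the 250 bases before the start in the RefSeq table for GRCh38.p14, which held windows for 9 of the 10 members but not for HLA-DRA. Capitals mark ATTGG, the core of the Y box (CCAAT when read on the other strand), and AGNAAC, 1 form of the core of the X box, on either strand. Forms such as AGNGAC were not searched or marked, and the HLA-DMA window holds agtgac in lower case before its first ATTGG. The capitals therefore need not mark the X box of a gene. CD74 is shown first, at chr5:150412911-150413160 on the minus strand, where IFNγ libraries had a peak. HLA-DMA, at chr6:32953098-32953347 on the minus strand, had a peak in 1 library. HLA-DPA1 has a pair of windows on the minus strand, the far one at chr6:33080749-33080998 with a peak in 2 libraries and the near one at chr6:33073650-33073899 with none. HLA-DRB1, at chr6:32589849-32590098 on the minus strand, had no peak and serves as an example with AGNAAC before ATTGG on the same strand.
CD74: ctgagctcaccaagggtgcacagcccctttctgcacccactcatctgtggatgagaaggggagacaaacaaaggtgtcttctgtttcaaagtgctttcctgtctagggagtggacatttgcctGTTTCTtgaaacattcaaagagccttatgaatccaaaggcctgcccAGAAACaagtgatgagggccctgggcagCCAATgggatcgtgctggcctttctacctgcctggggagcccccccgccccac
HLA-DMA: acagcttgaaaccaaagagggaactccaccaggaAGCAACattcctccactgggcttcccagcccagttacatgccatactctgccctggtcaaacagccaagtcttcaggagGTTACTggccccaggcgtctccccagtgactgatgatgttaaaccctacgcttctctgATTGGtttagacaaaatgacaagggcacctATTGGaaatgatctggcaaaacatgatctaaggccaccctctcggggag
HLA-DPA1 far start: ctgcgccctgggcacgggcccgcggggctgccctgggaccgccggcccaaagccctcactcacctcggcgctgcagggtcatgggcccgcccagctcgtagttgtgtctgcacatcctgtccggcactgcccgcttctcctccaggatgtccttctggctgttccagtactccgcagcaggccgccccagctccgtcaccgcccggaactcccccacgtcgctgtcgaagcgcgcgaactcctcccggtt
HLA-DPA1 near start: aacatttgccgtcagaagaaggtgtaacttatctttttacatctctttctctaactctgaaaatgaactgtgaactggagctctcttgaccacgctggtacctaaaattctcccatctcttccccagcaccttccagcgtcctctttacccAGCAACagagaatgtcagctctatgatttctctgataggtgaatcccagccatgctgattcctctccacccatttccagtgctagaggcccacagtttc
HLA-DRB1: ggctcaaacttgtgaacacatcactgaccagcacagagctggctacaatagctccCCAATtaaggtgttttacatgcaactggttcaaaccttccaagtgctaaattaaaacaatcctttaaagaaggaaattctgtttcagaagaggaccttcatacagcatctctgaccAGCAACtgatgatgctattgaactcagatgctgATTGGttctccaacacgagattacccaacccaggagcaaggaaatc

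ATTGG was found, on either strand, upstream of 8 of the 9 matched members, all but HLA-DPA1, while 32.0% of all 35116 windows of this length held it. AGNAAC was found upstream of 7 of the 9 (36.7% of all windows). In HLA-DRB1, HLA-DQA1 and HLA-DOA, AGNAAC preceded ATTGG on the same strand by 33, 34 and 34 bases between their first letters, an arrangement with 10 to 40 bases between them that 1.35% of all windows held. The form AGNGAC was not searched, and it precedes ATTGG in HLA-DMA (AGTGAC) and HLA-DQB1 (AGAGAC). These counts therefore do not separate members with both boxes from those without. In CD74, AGAAAC began 81 bases upstream of the start and CCAAT, the other strand of ATTGG, began 53 bases upstream. CTGATTGG, a longer form that contains ATTGG, was found in HLA-DRB1, HLA-DQB1 and HLA-DMA (3.81% of all windows). The hexamer TTAGGG, the telomeric repeat that ZBTB48 binds, was found in 0 of the 10 member windows (7.94% of all windows). At a CIITA promoter the study describes recognition of GGG in a site without this hexamer. Its absence from so few windows therefore says nothing about ZBTB48 sites at the members. These matches describe letters in the windows and do not show that a factor was bound.

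How many of the 10 genes had open chromatin at a start was counted first. With all annotated starts, a peak within 1 kb was found for 1 and 3 members in WT_untreated, 1 and 1 in KO_untreated, 1 and 4 in WT_IFNγ and 1 and 3 in KO_IFNγ (replicates 1 and 2). Of all protein-coding genes, 64.4% and 66.7% had such a peak in WT_untreated, 58.7% and 59% in KO_untreated, 60.6% and 69.8% in WT_IFNγ and 65.4% and 63.1% in KO_IFNγ. With 1 main start per gene, the Ensembl canonical one, a choice made after the data were seen, the counts were 0 and 1 in WT_untreated, 0 and 0 in KO_untreated, 0 and 3 in WT_IFNγ and 0 and 1 in KO_IFNγ. In the same order, 60.8% and 62.5%, 55.3% and 55.5%, 57.2% and 65.4%, and 61.6% and 59.2% of protein-coding genes had one. In every library the share of members with an open main start was at most 30%, below that of all protein-coding genes. All peaks at a main start came from replicate 2 of a group.

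**Figure D1:**
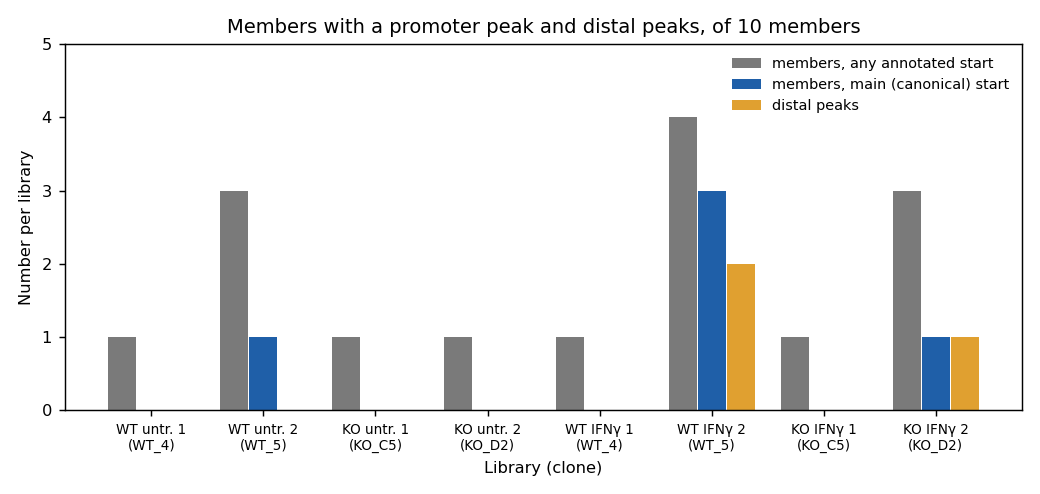
Bars give, for each library (x axis, clone in brackets), the number of the 10 members with a peak within 1 kb of any annotated start (grey), of the main start (blue) and the number of distal peaks (yellow). Replicate 2 of WT_IFNγ had 4, 3 and 2, and 5 of the 8 libraries had 1, 0 and 0.

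IFNγ libraries had 2.25 ± 1.5 members with a peak at any annotated start and untreated libraries 1.5 ± 1.0 (SD, n = 4 each), a difference of 0.75 that was smaller than the spread within either treatment. The groups overlapped, since 2 of the 4 IFNγ libraries had the count of 1 that 3 untreated libraries also had. Without WT_IFNγ replicate 2 the difference was 0.167, and without WT_untreated replicate 2 it was 1.25. Taken by clone, WT had a mean of 2.25 ± 1.77 such members and KO of 1.5 ± 0.707 (SD, n = 2 clones per genotype), so the genotypes differed by less than the WT clones did. Without KO_untreated replicate 2 that difference of 0.75 became 0.25, and without KO_IFNγ replicate 2 it became 1.25, the widest range on leaving out 1 library, and at equal list length it was 0. With 2 clones against 2 no two-sided exact permutation p can reach 0.05, and no test was run on counts over the chosen genes.

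CD74, the invariant chain gene, was the only member whose main start was open in more than 1 IFNγ list and in no untreated list. A peak lay over its main start (chr5:150412680-150413127, a coding exon and upstream sequence) in WT_IFNγ replicate 2 and KO_IFNγ replicate 2, and in none of the 4 untreated lists or the replicate 1 IFNγ lists. With HLA-DMA it made 2 of 10 members open at the main start in IFNγ lists alone, as 2.42% of protein-coding genes were. Fold enrichment is the summit pileup over the local background, with 1 added to each. In WT_IFNγ replicate 2 the fold of the CD74 peak was 20.0, with a −log10 p of 48.4. Its summit lay 8 bases upstream of the start, inside the window printed above. In KO_IFNγ replicate 2 the fold was 6.79, the −log10 p 17.4, and the summit lay 40 bases downstream of the start. The pileup was 39 fragments over a background of 0.998 in the WT library and 28 fragments over 3.27 in the KO library. In the 6 lists without it, peaks with pileups as low as 5 or 6 fragments were called elsewhere. The pileup needed for a call rises with the local background, which is not known at the CD74 start in those 6 lists. In KO_IFNγ replicate 2, a peak of 10 fragments over a background of 2.67 was only at percentile 0.324. The stronger peak came from the WT library, but with 1 library of each genotype showing it the genotypes cannot be compared with an error. A site open in fewer cells and a site less open in each cell cannot be told apart in these bulk libraries.

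**Figure D2:**
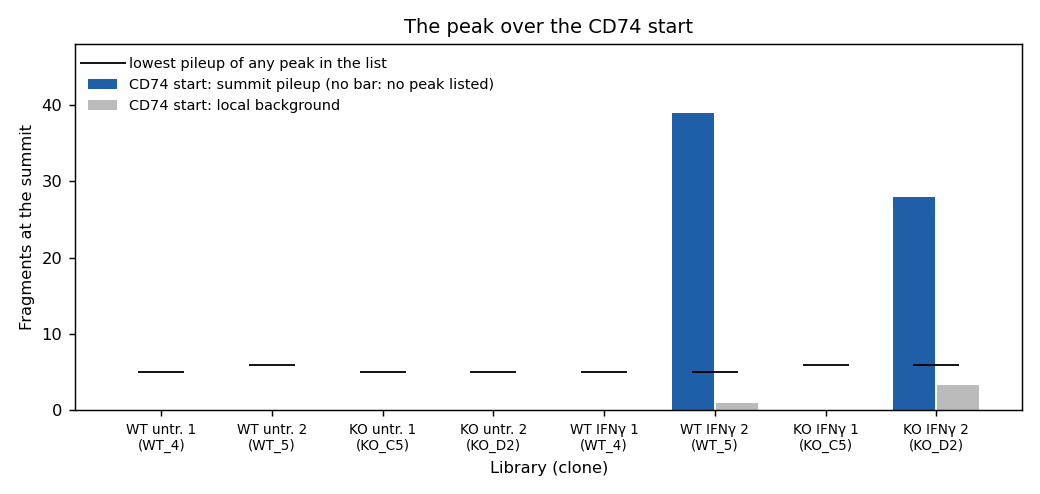
For each library (x axis), blue bars give the fragments at the summit of the peak over the CD74 start, grey bars the local background there, and black dashes the lowest pileup of any peak in that list. Only WT_IFNγ replicate 2 (39 fragments) and KO_IFNγ replicate 2 (28 fragments) had a peak, and the dashes sit at 5 or 6 in all 8 lists. The dashes do not give the pileup needed for a call at the CD74 start, which depends on the background there.

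Within its list the CD74 peak stood at percentile 67.6 by −log10 p in WT_IFNγ replicate 2 and at 36.0 in KO_IFNγ replicate 2. Of the 9418 protein-coding genes whose main start had a peak at least that strong in WT_IFNγ replicate 2, 9 (0.0956%) had no peak in any untreated list, and CD74 was 1 of them. The others were APOL4, HAPLN1, LHX9, RASIP1, RBP5, RTKN, SMIM38 and TMEM229B, named after their values were seen. The same count in KO_IFNγ replicate 2 was 18 of 10455 (0.172%). Of the 9418 genes, 3.61% lacked a peak in WT_IFNγ replicate 1 and 0.212% lacked one in KO_IFNγ replicate 1, as CD74 did. A pattern of presence identical to that of CD74 was found for 20 other protein-coding genes (0.100%), led by CPVL, GLRA1 and IFI27L2 with mean percentiles of 41.1, 35.0 and 32.2, all below the 51.8 of CD74. When every list was cut to its 16730 strongest peaks, the CD74 peak remained in the same 2 lists, at percentiles 27.4 and 5.48. In those cut lists 0.0351% of protein-coding genes had this same pattern, CD74 among them, and 1.02% had a peak at the main start in an IFNγ list and in no untreated list.

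A weaker peak lay in an intron of CD74, with its summit 2969 bases downstream of the main start (chr5:150409830-150410060), in WT_IFNγ replicate 2 alone. Its fold was 6.22 with a pileup of 10 fragments, at percentile 24.9. In libraries without a peak at CD74, the nearest peak of any kind lay 23.2 to 55.1 kb from its start.

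**Figure D3:**
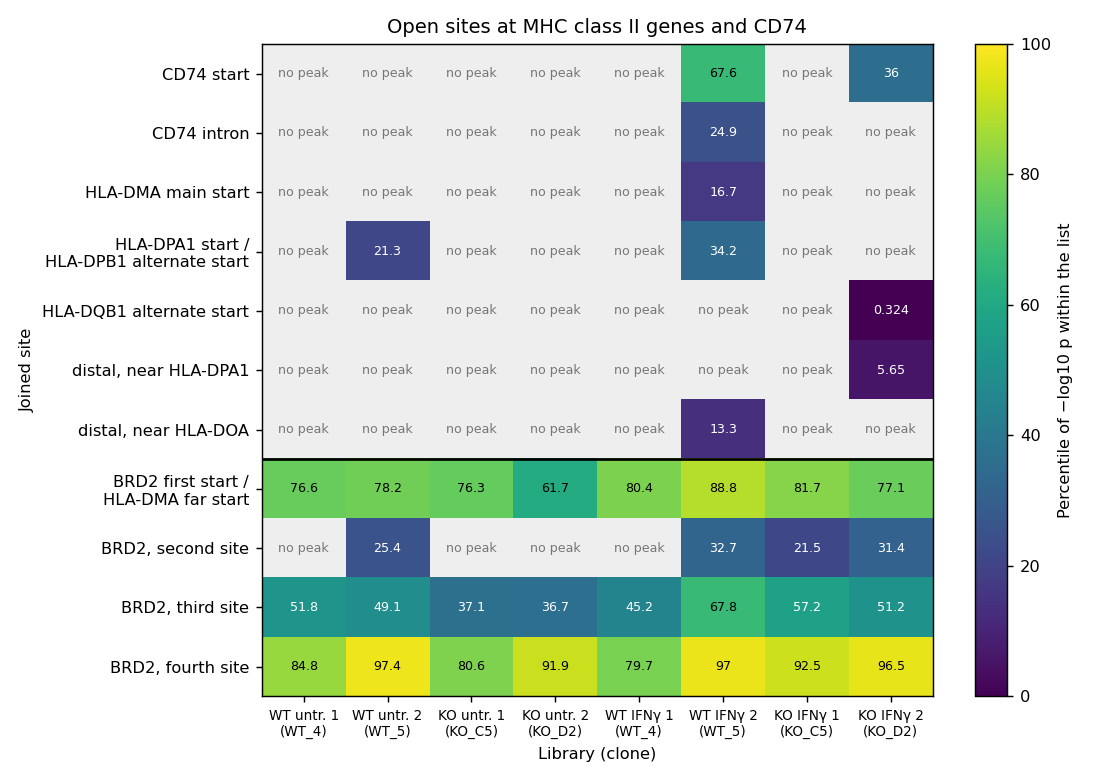
Each row is 1 of the 11 joined sites and each column 1 library, and the colour and number give the percentile of the peak by −log10 p within its list (grey: no peak). Above the line are the 7 sites at members, 5 of them in 1 library only, and below it the 4 sites at BRD2, 3 of them in all 8 libraries.

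HLA-DMA, the alpha chain of the HLA-DM peptide editor, had a peak at its main start (chr6:32953182-32953432) in WT_IFNγ replicate 2 only. The fold was 5.19, with 9 fragments at the summit over a background of 0.927, and the summit lay 222 bases upstream of the start. It was at percentile 16.7 of its list, and 251 other protein-coding genes (1.26%) had a main start open in that library alone. An unnamed gene, ENSG00000248993, has a start within 1 kb of the same peak, so the signal cannot be assigned to HLA-DMA alone.

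HLA-DMA also has an annotated start far upstream, which is why it counts as open in every list when all starts are used. The peak near it (chr6:32968216-32968990) lay over the first start of BRD2, a gene of a bromodomain protein of the BET family that reads acetylated histones and is transcribed in the opposite direction. Its summits lay 15391 to 15457 bases upstream of the main start of HLA-DMA. The fold enrichment there was 42.6 and 27.0 in WT_untreated, 27.9 and 16.8 in KO_untreated, 34.3 and 54.0 in WT_IFNγ and 27.5 and 20.2 in KO_IFNγ. Openness of BRD2 and of the far HLA-DMA start cannot be told apart at this site. Of all protein-coding genes, 52.1% had a peak at an annotated start in all 8 lists, and of the 10 members only HLA-DMA did.

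HLA-DPA1 and HLA-DPB1 encode the alpha and beta chain of HLA-DP and lie on opposite strands. A site over the main start of HLA-DPA1, a coding exon of HLA-DPB1 and an alternate start of HLA-DPB1 (chr6:33080226-33080982) was open in both libraries of clone WT_5 and in no other. In WT_untreated replicate 2 it held 2 peaks, with folds of 6.18 and 3.87 and pileups of 12 and 8 fragments. In WT_IFNγ replicate 2 it held 1 peak, with a fold of 7.64 and a pileup of 13 fragments. The strongest peaks were at percentiles 21.3 and 34.2 of their lists, and the libraries with and without IFNγ therefore did not separate. It was absent from clone WT_4 and from both KO clones. Of protein-coding genes, 5.48% had a main start open in some WT list and in no KO list, and 80 others (0.401%) were open in exactly these 2 libraries. RPL32P1, a ribosomal protein pseudogene, has a start within 1 kb of 2 of these 3 peaks. The near start of HLA-DPA1, which holds AGCAAC, and the main start of HLA-DPB1, which holds ATTGG on both strands, had no peak within 1 kb in any library. The main start of HLA-DPA1 lies beside the far window printed above, which held neither AGNAAC nor ATTGG. Counting HLA-DPA1 as open at its main start therefore rests on that choice of start.

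HLA-DQB1, the beta chain of HLA-DQ, had a peak only near an alternate start, 1908 bases upstream of its main start (chr6:32668420-32668627), in KO_IFNγ replicate 2. Its fold of 3.0 with 10 fragments was at percentile 0.324 of the list, among the weakest peaks that were called. It was not listed with a fold of at least 4 or a −log10 q of at least 3.

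HLA-DRA, HLA-DRB1, HLA-DQA1, HLA-DMB and HLA-DOA had no peak within 1 kb of any annotated start in any of the 8 libraries, which held for 26.2% of protein-coding genes. At the main start none was found for 7 of the 10 members, these 5 with HLA-DQB1 and HLA-DPB1, against 30.4% of protein-coding genes. From the main start of HLA-DRA, the alpha chain of HLA-DR, the nearest peak was 20.0 kb away in the closest library, with a median of 105 kb over the libraries. For HLA-DRB1 the closest was 78.6 kb (median 212 kb) and for HLA-DQA1 31.0 kb (median 201 kb). For HLA-DMB the closest was 12.2 kb (median 27.3 kb) and for HLA-DOA 9.44 kb (median 37.0 kb). Both of these closest peaks were in WT_IFNγ replicate 2. They were the peak at the HLA-DMA main start and an intergenic peak upstream of HLA-DOA. Absence from a list says that a site was not called at this depth, not that it was closed. Reads of mapping quality under 30 had been removed, and HLA-DRB1, HLA-DQA1 and HLA-DQB1 have close copies and many alleles. What part this had in the missing peaks was not tested.

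Away from any annotated start, 3 peaks lay in the windows, each in 1 IFNγ library. The share of all distal peaks found in IFNγ lists alone was not counted. The IFNγ lists were also longer, so these 3 peaks are not read as a treatment effect. They were the CD74 intron peak, an intergenic peak 9563 bases upstream of HLA-DOA in WT_IFNγ replicate 2 (fold 4.92, 8 fragments, percentile 13.3) and an intergenic peak 20273 bases from the HLA-DPA1 main start, past the end of the gene, in KO_IFNγ replicate 2 (fold 4.72, 10 fragments, percentile 5.65). IFNγ libraries had 0.75 ± 0.957 distal peaks and untreated libraries 0 ± 0 (SD, n = 4 each), so the difference did not exceed the spread of the IFNγ libraries. WT clones had 0.5 ± 0.707 and KO clones 0.25 ± 0.354 (SD, n = 2 clones each). Without WT_IFNγ replicate 2 the WT minus KO difference of 0.25 turned to -0.25 and the IFNγ minus untreated difference became 0.3333. None of the 3 peaks remained when the lists were cut to equal length, and both differences were then 0.

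Of the 8 sites that were not in all libraries, 1 remained at equal list length, the CD74 start. The others were the CD74 intron, HLA-DMA, HLA-DPA1 and HLA-DQB1 sites, the 2 intergenic sites and a second site in BRD2 (chr6:32969284-32970478). That BRD2 site was in 4 lists, WT_untreated replicate 2, WT_IFNγ replicate 2 and both KO_IFNγ libraries, at percentiles 25.4, 32.7, 21.5 and 31.4.

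The 3 sites in all 8 libraries belonged to the BRD2 end of the HLA-DMA window, and their rank within the list was compared between treatments. The IFNγ lists were longer, with 27158 ± 7781 peaks against 21817 ± 5553 (SD over 4 libraries each), so the ranks were also taken at equal list length. At the first, near the far HLA-DMA start, the percentile was 76.6 and 78.2 in WT_untreated, 76.3 and 61.7 in KO_untreated, 80.4 and 88.8 in WT_IFNγ and 81.7 and 77.1 in KO_IFNγ. It was higher with IFNγ within each of the 4 clones, by 3.8, 10.6, 5.42 and 15.4 points in WT_4, WT_5, KO_C5 and KO_D2, though the 2 treatments overlapped. The means were 82.0 ± 4.92 with IFNγ and 73.2 ± 7.72 without (SD over 4 libraries each; two-sided exact permutation p = 0.0571 over 70 assignments, adjusted p = 1 over 11551 regions). Of those 11551 regions in all 8 lists, 15.9% were higher in 4 of 4 clones and the median change was 2.48 points. At equal list length the change at the first site was 5.83 points (exact permutation p = 0.171).

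The third site in BRD2 (chr6:32970716-32971157) averaged 55.3 ± 9.64 with IFNγ and 43.7 ± 7.94 without (SD over 4 libraries each; p = 0.143 by the same exact test, adjusted p = 1), and was higher in 3 of 4 clones. At equal list length its change of 11.7 points became 2.88 (exact permutation p = 0.657). The fourth (chr6:32971432-32973144), where the strongest peak of each library had a fold of 26.7 to 74.7, averaged 91.4 ± 8.05 and 88.7 ± 7.46 (SD over 4 libraries each; p = 0.743 by the exact test, adjusted p = 1). None of the 11551 regions passed an adjusted p of 0.05, while 0.996% were higher and 0.0779% lower at an unadjusted p under 0.05. The smallest p of this exact test was 0.0286, so an adjusted p under 0.05 needed most regions to sit at that floor. The adjusted values therefore could not judge single regions. The 4 WT and 4 KO libraries overlapped at each of the 3 sites, while at 7.17% of all regions every WT library was above every KO library and at 0.286% below. By clone, WT and KO means were 81.0 ± 3.49 and 74.2 ± 6.83 at the first site, 53.5 ± 7.03 and 45.5 ± 2.30 at the third and 89.7 ± 10.6 and 90.4 ± 5.40 at the fourth (SD, n = 2 clones each). All regions had a median WT minus KO difference of 4.19 points.

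**Figure D4:**
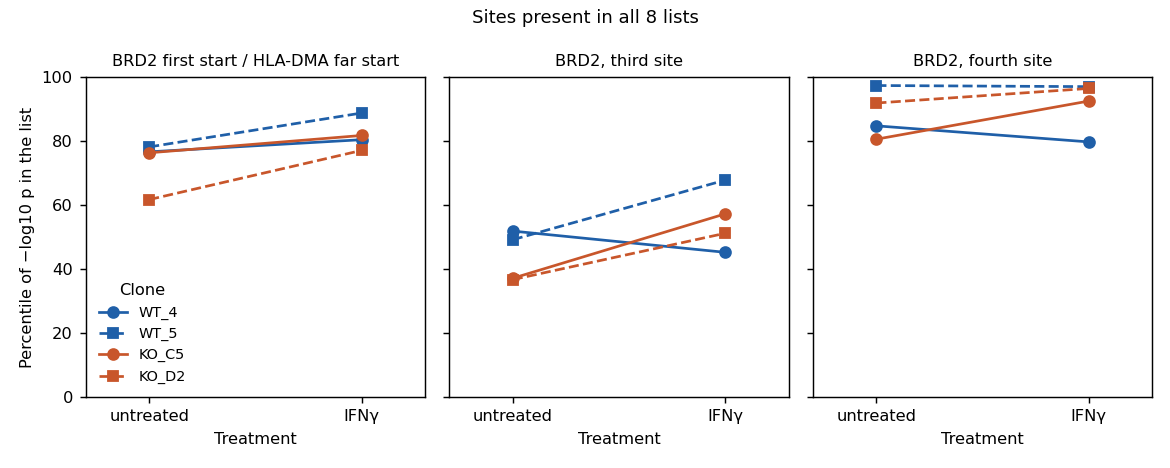
Each panel shows 1 site that was in all 8 lists, with treatment on the x axis and the percentile of −log10 p within the list on the y axis; each line joins the untreated and IFNγ library of 1 clone (blue WT, orange KO). At the first site all 4 clones are higher with IFNγ, by 3.8 to 15.4 points, and at the fourth both WT clones are lower and both KO clones higher.

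Genes that act with the members were set beside them at the main start. None of the 4 other class II genes (HLA-DOB, HLA-DRB5, HLA-DQA2, HLA-DQB2) had a peak in any library. Of 8 regulators, RFX5, RFXAP, NFYA, NFYB, NFYC and CREB1 were open in all 8 lists (48.7% of protein-coding genes were), and RFXANK, a subunit of the RFX complex, in 7, all but WT_IFNγ replicate 1. CIITA was open at an annotated start in the 4 IFNγ lists and no untreated list (2.59% of protein-coding genes were open in IFNγ lists alone), at percentiles 22.8 and 55.0 in WT_IFNγ and 23.4 and 19.7 in KO_IFNγ. At its main start it had a peak in WT_IFNγ replicate 2 alone. Of the IFNγ libraries with a peak near some annotated CIITA start, 2 had a CD74 peak and 2 had none. The highest CIITA percentile and its only main-start peak were in WT_IFNγ replicate 2, which also had the stronger CD74 peak. A link between the 2 genes was not tested. These peaks were not assigned to a particular promoter of CIITA here.

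Of 6 genes of lysosomal processing, CTSL, CTSD and LGMN were open in all 8 lists, the thiol reductase gene IFI30 in 7 and the cathepsin gene CTSB in 5, and CTSS, the cathepsin that trims the invariant chain, in none. Of 9 genes of the class I pathway, which presents peptides from inside the cell, HLA-E, TAP1, TAP2 and PSMB9 were open in all 8 lists. The other 5, HLA-B, HLA-C, HLA-F, B2M and PSMB8, were in more IFNγ than untreated lists, as were CD74 and HLA-DMA among the 10 members and 11.5% of protein-coding genes. Per library, 4 to 9 of the 9 class I genes had an open main start and 0 to 3 of the 10 members did. B2M, the light chain of class I, was at percentiles 77.7 and 78.5 in the untreated and IFNγ libraries of clone WT_5 and at 41.1 and 78.8 in those of KO_D2, the clones whose IFNγ libraries had the CD74 peak. In the clones without that peak it was at 27.7 and 36.1 in WT_4, and in KO_C5 it had no untreated peak and was at 70.8 with IFNγ. B2M is 1 of the 9 class I genes and does not stand for the list. In WT_4, HLA-E, TAP2 and PSMB8 were also higher with IFNγ, but HLA-F, TAP1 and PSMB9 were lower.

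**Figure D5:**
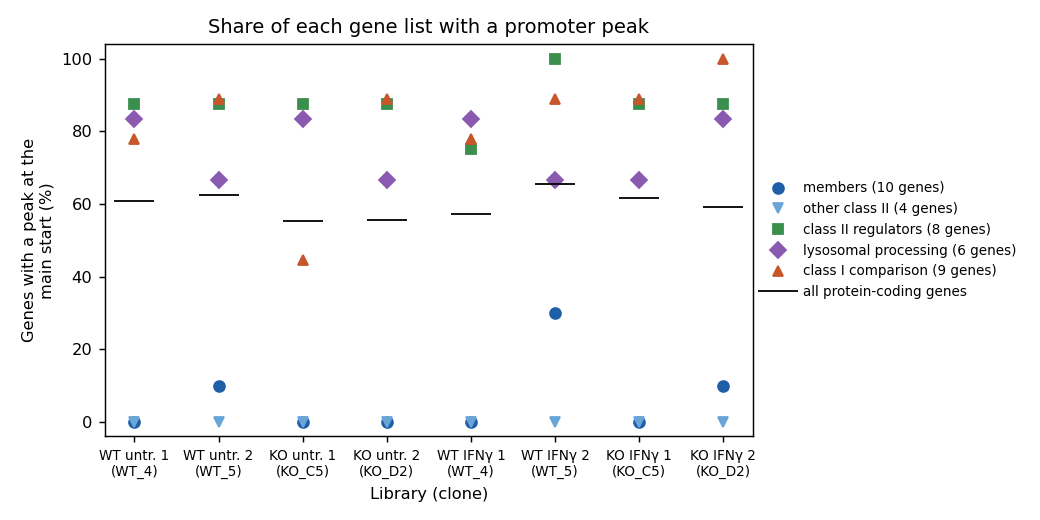
Points give the percentage of each gene list with a peak within 1 kb of the main start in each library (x axis), and black dashes the percentage of all protein-coding genes. The members (blue circles) lie between 0% and 30%, under the dashes at 55.3% to 65.4%, and the class I list (orange triangles) between 44.4% and 100%.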

How the data were processed

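The 8 FAIRE-seq libraries were grouped by genotype and treatment as labelled. Per the study's methods, reads were trimmed, aligned to GRCh38 with bowtie2 (2.2.5), filtered at mapping quality 30 with SAMtools (1.14), and peaks were called per library with MACS2 (2.2.7.1) in paired-end mode. Use of input DNA as control and the treatment of duplicates are not given in the sources used here. The authors' deposited fold enrichment is a ratio of summit pileup to local background, after the same small constant was added to both. The deposited −log10 p and −log10 q come from the same caller. The deposited score was not used.

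Here pileup and background at each summit were worked back from the fold and the −log10 p by the caller's Poisson model, which a whole number of fragments met within 0.5% of −log10 p for 98.5% to 100% of peaks per list and for every peak named. Read totals were not analysed here. Peaks sharing 1 bp were joined, promoters were 1 kb either side of GENCODE 44 starts, and percentiles of −log10 p were taken within each list. Untreated and IFNγ libraries are paired by clone per the labels. Treatment was tested by a two-sided exact permutation test over 70 assignments of the libraries (smallest p 0.0286) for all 11551 regions in all 8 lists with Benjamini-Hochberg adjustment, and over sign patterns with the clone as block (smallest p 0.125). The code, in Python 3.11.15 with pandas 2.3.3 and scipy 1.17.1, was tested on simulated lists. All 10 members are named, with listed genes of the pathway and markers, genes of 1 to 7 lists by name, the 3 genes of most similar pattern and genes whose start lies at a member's peak. A listed class I gene and a listed blood marker are not reported here. The members and lists were chosen with earlier results of these data known, and the main start per gene was added after the data were seen. Alternatives were equal list length, limits of 3 on −log10 q or 4 on fold, a 500 bp promoter, summit distance, 1 start per gene record, windows of 5 and 20 kb, an overlap of 0.5, percentiles of fold, and each library left out.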

Additional observations from a re-analysis of the deposited data

Results flagged for a closer look

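Within the 4 untreated libraries, WT_untreated replicate 2 stood apart with 3 members with a promoter peak, where the others had 1, and with 1 member open at the main start, where the others had 0. KO_untreated replicate 2 had a percentile of 61.7 at the site over the first BRD2 start, below the 76.3 to 78.2 of the other untreated libraries. WT_untreated replicate 1 had a fold of 15.3 at the third BRD2 site, where the other untreated libraries had 8.44 to 9.37. For normally distributed values this criterion flags about 1 in 20 groups by chance. Among counts, a group with 3 equal values and 1 other is always flagged. Both counts of members above are of that kind, so the rate does not hold for them. At the fourth BRD2 site both WT clones were lower with IFNγ (mean change -2.69 points) and both KO clones higher (11.9 and 4.56 points); the difference was not tested.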

How the results depend on the processing

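At equal list length the IFNγ minus untreated difference in distal peaks was 0, the WT minus KO difference at the third BRD2 site was -2.12 points, against 7.96, and 1 of 8 sites at the members remained present in some but not all lists; the lists then hold fewer peaks. Leaving out 1 library each gave 5 to 8 such sites, the 5 without WT_IFNγ replicate 2. The WT minus KO differences in promoters (0.75) and distal peaks (0.25) were 0 at equal list length, which is within 1 SD. These and the remaining summary values, 154 in all, moved by less than 1 SD, stayed within 1.5 times or kept direction and call. Of the numbers of lists that hold each single site, 18 of 88 recomputed values moved by over 1.5 times. With the clone as replicate block, the promoter difference stayed 0.75 and the 3 BRD2 sites had exact sign-flip p = 0.125, 0.25 and 0.75. The smallest p of that test is 0.125, so it could make no call. Lists give no value below the calling threshold, so absence depends on depth.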
